A study of Mus musculus with 10 samples.

Results

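The genes described are 10 that encode lysosomal cathepsins and the proteins that work with them in endosomal antigen processing: Ctss, Ctsb, Ctsc, Ctsd, Ctsh, Ctsl, Ctsz, Lgmn, Ifi30 and Cst3. They were listed by name, with earlier results of these data known, and were found by matching the Entrez IDs of the count table to their symbols, a rule that has no threshold on a measured value. They are 10 of 27179 genes in the table, and all 10 passed the filter on low counts and were among the 12655 genes tested. The RNA came from EM γδ T cells, sorted as CD3+ γδTCR+ CD62L- CD44+ cells from the spleens of female C57BL/6 mice aged 6 to 8 weeks at infection. The 5 pre-exposed mice had been injected intravenously with 50000 P. chabaudi-infected red blood cells, and the 5 naïve mice had not. Every mouse, naïve mice included, received chloroquine and pyrimethamine starting on day 14, and the spleens were collected 12 weeks after that treatment. One library was made per mouse. In such bulk RNA from sorted cells, fewer cells of a type and less RNA per cell cannot be told apart.

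Cathepsins are proteases of endosomes and lysosomes that are made as inactive precursors and become active as the compartment acidifies. Most are cysteine proteases, while cathepsin D is an aspartic protease. In antigen-presenting cells they cut up engulfed proteins and trim the invariant chain that blocks the groove of MHC class II molecules, and in cytotoxic lymphocytes cathepsin C activates the granzymes.

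Promoter sequences are shown because several members varied together across the mice. The 5 chosen include Lgmn and Cst3, which passed the test between the groups and had a usable entry. The others are Ctss, Ifi30 and Ctsd, which like Cst3 held a searched motif in a window outside the annotated gene. All 5 are from RefSeq on GRCm38.p6, and 8 of the 10 genes had an entry, while Ctsb and Ctsh are named only. In 6 genes the 250 bases before the RefSeq start lay outside the annotated gene, and each sequence is cut short where GENCODE annotates a longer transcript. Capitals mark 3 motifs, searched on both strands: the E-box CACGTG, which TFEB and other basic helix-loop-helix factors bind, GAGGAA, the core bound by PU.1 of myeloid and B cells, and a pair of GAAA separated by any 2 bases, which interferon regulatory factors bind. No marked motif overlapped another. Ctss is given at chr3:95526536-95526785 on the plus strand. The other 4 are on the minus strand, Ifi30 at chr8:70766664-70766913, Lgmn at chr12:102439814-102439978, Cst3 at chr2:148875693-148875762 and Ctsd at chr7:142388039-142388077.
Ctss: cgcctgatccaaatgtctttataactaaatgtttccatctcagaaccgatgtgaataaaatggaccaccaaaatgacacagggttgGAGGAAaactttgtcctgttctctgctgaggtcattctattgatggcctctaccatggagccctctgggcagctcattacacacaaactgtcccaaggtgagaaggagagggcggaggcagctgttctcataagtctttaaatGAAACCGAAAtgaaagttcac
Ifi30: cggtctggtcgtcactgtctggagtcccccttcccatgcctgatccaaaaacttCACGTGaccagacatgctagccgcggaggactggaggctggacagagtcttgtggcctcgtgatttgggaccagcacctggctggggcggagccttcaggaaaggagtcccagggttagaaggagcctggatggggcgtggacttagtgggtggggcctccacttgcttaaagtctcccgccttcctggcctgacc
Lgmn: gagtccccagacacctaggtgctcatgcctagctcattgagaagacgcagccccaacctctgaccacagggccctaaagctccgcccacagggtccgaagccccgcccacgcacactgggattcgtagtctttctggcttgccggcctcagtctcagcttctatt
Cst3: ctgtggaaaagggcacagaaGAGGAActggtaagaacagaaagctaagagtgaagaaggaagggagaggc
Ctsd: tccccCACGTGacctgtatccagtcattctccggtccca

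Among those 6 windows of 250 bases, the E-box was found in 2. It lay 196 bases before the start of Ifi30 and 245 and 98 bases before that of Ctsd, the last of these outside the stretch shown. Of all 32851 RefSeq windows of this length 6.02% hold it. GAGGAA was found in 2 windows, 164 bases before the start of Ctss and 230 before that of Cst3, against 23.3% of all windows. The pair of GAAA was found in 1, which began 21 bases before the start of Ctss, against 2.98% of all windows. The windows of Lgmn and Ctsz outside the gene held none of these motifs. Windows inside the annotated gene were left out. Among those, CACGTG was found in Ctsl and 49 bases before a second RefSeq start of Lgmn, and GAGGAA in Ctsc. The shares of all windows were counted without such an exclusion. A match describes the letters only.

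Libraries held 6587199 to 19993444 counts in naïve mice and 8747888 to 22542832 in pre-exposed mice. The γδ T cell marker genes, Cd3d and the γδ receptor constant genes among them, were high in every library. Their summed level was 6998 to 11698 CPM (counts divided by the scaled library size in units of 1000000) in naïve mice. It was 4585 CPM in pre-exposed mouse 1, below every naïve mouse, and 9856 to 15139 CPM in pre-exposed mice 2 to 5. Immunoglobulin transcripts took 0.0845% to 0.737% of the counts in naïve mice and 0.345% to 6.68% in pre-exposed mice. Pre-exposed mouse 5 stood apart, with 24.7% of its counts in its 10 most abundant genes. The labels of pre-exposed mice 2 to 4 lack the sequencing index pair that all the others carry. In naïve mice and pre-exposed mouse 1 longer genes read relatively higher (Spearman's rho between length and the deviation of log2 CPM from the gene's mean, 0.259 to 0.413), while in pre-exposed mice 2 to 5 shorter genes did (-0.536 to -0.136). In length, 9 of the 10 members are below the median of the genes tested, 2665 bases. The part of these differences between libraries in the results was not tested beyond the values given beside them.

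In naïve EM γδ T cells the members spanned about 2 orders of magnitude. Per length, in TPM, which divide by the length of the gene, the aspartic protease gene Ctsd was the highest at 477 ± 80.5 TPM (SD, n = 5), above 98.3% of the genes tested, and was followed by Cst3, which encodes the secreted cysteine protease inhibitor cystatin C, at 341 ± 133 TPM. Ctss, the main invariant chain protease of dendritic cells and B cells, had 223 ± 39.7 TPM. A middle group held Ctsc at 107 ± 23.1, Ctsz, an exopeptidase gene, at 105 ± 27.9 and Ctsb at 94.0 ± 17.1 TPM. Low levels were found for Ifi30, which encodes the thiol reductase GILT, at 16.6 ± 7.95 TPM and for Ctsl, an endopeptidase gene, at 10.2 ± 1.67 TPM. The lowest were Ctsh, an aminopeptidase gene, at 5.03 ± 4.43 TPM and Lgmn, which encodes the asparaginyl endopeptidase legumain, at 3.85 ± 0.678 TPM.

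Of the 9 neighbouring pairs in this order, the naïve values did not overlap in 2, between Ctss and Ctsc and between Ctsb and Ifi30. The other neighbours overlapped, although Ctsd was above Cst3 in each of the 5 naïve mice. That order was turned in each of the 5 pre-exposed mice, where Cst3 was above Ctsd. Ctsh moved from rank 9 to rank 7 by group mean, and its pre-exposed level was 57.9 ± 43.1 TPM.

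**Figure D1:**
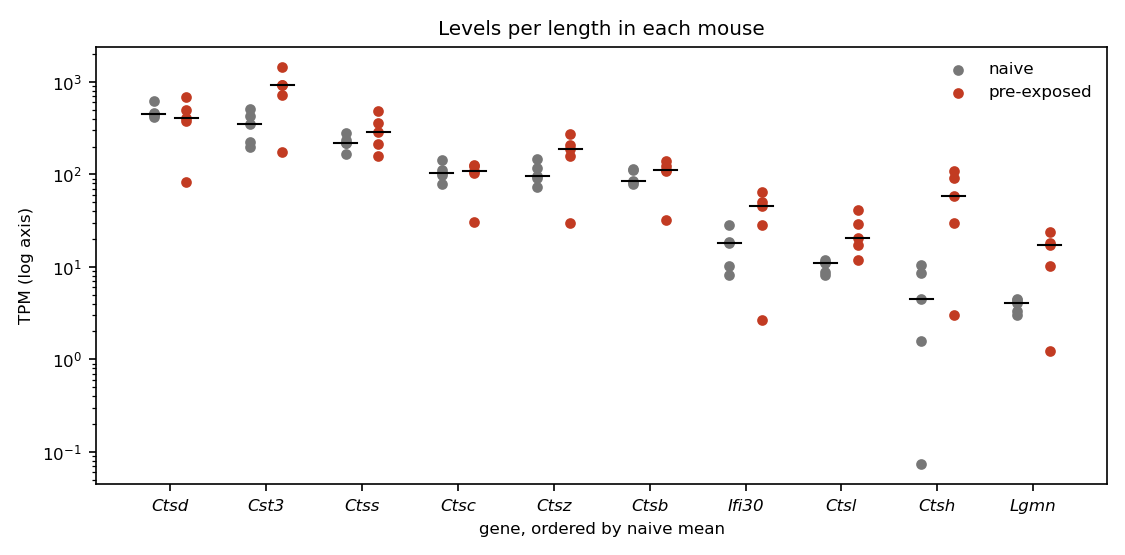
Levels per length in TPM (log axis) of the 10 genes, ordered by their naïve mean, with 1 point per mouse (grey naïve, red pre-exposed, n = 5 each) and a line at the group median. Ctsd has the highest naïve median and Cst3 the highest pre-exposed median, and the lowest pre-exposed point of each gene is mouse 5.

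Libraries of sorted EM γδ T cells held more mRNA of cathepsin H, cathepsin L, legumain and cystatin C in pre-exposed than in naïve mice. Several markers of other cell types, given further on, moved with these genes. With edgeR's quasi-likelihood test and an adjusted p under 0.05 over all genes, 4 of the 10 genes were called higher and 0 lower, beside 5.12% of all genes tested called higher and 1.17% called lower. At an unadjusted p under 0.05, 7 of the 10 passed, beside 24.3% of all genes. The fitted log2 fold change was above 0 for all 10, with a median of 1.36, against 0.02 over all genes tested. In 1 of the 10, Ctsl, every pre-exposed mouse was above every naïve mouse, beside 2.77% of all genes, and in 0 was every one below, beside 2.17%. This was in CPM, whereas in TPM, which are not scaled by TMM, 0 of the 10 had every pre-exposed mouse above every naïve mouse, beside 0.553% of all genes. These counts depended on single libraries: 0 of the 10 were called without naïve mouse 1 (0.387% of all genes higher) or without pre-exposed mouse 2 (0.553%), and 1 without naïve mouse 2 (0.68%) or 5 (1.19%). Without naïve mouse 4 there were 2 (1.09%) and without naïve mouse 3 there were 3 (2.3%), while without pre-exposed mouse 5 there were 8 (9.17%). In both fits with 0 called, 7 of the 10 passed at an unadjusted p under 0.05, beside 19.4% of all genes without naïve mouse 1 and 18.2% without pre-exposed mouse 2. The study's own kind of test, limma's voom and TREAT for changes beyond 1.5-fold, called 0 of the 10 and 2 genes in all (0.0158%). At an unadjusted p under 0.05, 4 of the 10 passed that test, beside 6.97% of all genes. With sample quality weights it called 2 of the 10, Lgmn and Cst3, beside 1.31% of all genes called higher. DESeq2 called 7 of the 10, beside 7.97% of all genes called higher.

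Ctsl (chr13:64361890-64370772) encodes cathepsin L, which trims the invariant chain in thymic epithelium. It had 13.7, 13.2, 15.1, 9.57 and 9.54 CPM in naïve mice 1 to 5 and 58.7, 54.1, 29.4, 21.2 and 30.9 CPM in pre-exposed mice 1 to 5. The groups did not overlap in CPM, and pre-exposed mice 1 and 2 were the highest. In TPM the lowest pre-exposed value, 11.8 in mouse 5, was just under the highest naïve value of 11.9. The log2 fold change was 1.66 (SE 0.32), with an adjusted p of 0.0141 by edgeR. It missed the threshold without naïve mouse 1 (1.70) and without pre-exposed mouse 2 (1.51), but its size moved little.

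Ctsh (chr9:90054267-90076095) encodes cathepsin H and differed most in size. It had 0.0734, 1.55, 11.0, 8.27 and 4.05 CPM in naïve mice 1 to 5 and 106, 166, 69.5, 30.2 and 6.54 CPM in pre-exposed mice 1 to 5. Pre-exposed mice 1 to 4 were above every naïve mouse, and mouse 5 was within the naïve range. Naïve mouse 1 rested on 1 count, for which the exact Poisson interval at 95% is 0.0253 to 5.57 counts or at most 0.409 CPM, below every other naïve mouse. The log2 fold change was 3.95 (SE 0.83), with an adjusted p of 0.0197 by edgeR. It missed the threshold without naïve mouse 1 (3.62), 2 (3.69) or 5 (3.90) and without pre-exposed mouse 2 (3.44).

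Lgmn (chr12:102394082-102439728) encodes legumain, which cuts after asparagine and also processes other cathepsins. It had 3.82, 3.41, 5.31, 5.08 and 4.19 CPM in naïve mice 1 to 5 and 23.3, 42.2, 25.1, 12.1 and 3.09 CPM in pre-exposed mice 1 to 5. Pre-exposed mouse 5 was the lowest of all 10 mice and the other four were above every naïve mouse. The log2 fold change was 2.31 (SE 0.50), with an adjusted p of 0.0216 by edgeR. It missed the threshold without naïve mouse 1 (2.26), 2 (2.22), 4 (2.37) or 5 (2.30) and without pre-exposed mouse 2 (1.88).

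Cst3 (chr2:148871722-148875512) encodes cystatin C, an inhibitor of cysteine cathepsins that dendritic cells and macrophages secrete. It had 89.9, 101, 167, 189 and 209 CPM in naïve mice 1 to 5 and 386, 1022, 501, 426 and 172 CPM in pre-exposed mice 1 to 5. Pre-exposed mouse 2 was the highest and mouse 5 was within the naïve range. The log2 fold change was 1.73 (SE 0.40), with an adjusted p of 0.0252 by edgeR. It missed the threshold when any one naïve mouse was left out (1.59 to 1.88) and without pre-exposed mouse 2 (1.27). At 742 bases Cst3 is the shortest of the 10 genes, and with the length trend of each library removed its log2 fold change was 1.00 (SE 0.39), with an adjusted p of 0.213 by edgeR. Ctsl, Ctsh and Lgmn were still called with that trend removed, which makes 3 of the 10 beside 1.38% of all genes.

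Ctss, Ctsz and Ifi30 did not pass the adjusted threshold with all 10 mice. Ctss (chr3:95526786-95556405) had 181, 179, 242, 192 and 125 CPM in naïve mice 1 to 5 and 469, 464, 284, 183 and 285 CPM in pre-exposed mice 1 to 5. Here pre-exposed mouse 4 was within the naïve range and mouse 5 above it, whereas in 6 of the members mouse 5 was below every naïve mouse in CPM. Its log2 fold change was 0.87 (SE 0.28), with an adjusted p of 0.0732 by edgeR. It passed at 1.03 without pre-exposed mouse 4 and at 0.92 without mouse 5.

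Ctsz (chr2:174427494-174439039) had 62.1, 77.8, 86.6, 98.3 and 112 CPM in naïve mice 1 to 5 and 186, 357, 162, 182 and 55.6 CPM in pre-exposed mice 1 to 5. Its log2 fold change was 1.12 (SE 0.36), with an adjusted p of 0.0764 by edgeR. Ifi30 (chr8:70762773-70766663) reduces disulfide bonds of proteins before they are cut, and its product is induced by interferon-γ. It had 6.24, 4.86, 11.6, 10.6 and 15.3 CPM in naïve mice 1 to 5 and 45.1, 46.6, 20.8, 27.8 and 3.45 CPM in pre-exposed mice 1 to 5. Its log2 fold change was 1.61 (SE 0.50), with an adjusted p of 0.0691 by edgeR. In both genes pre-exposed mouse 5 was the lowest of all 10 mice and the other four were above every naïve mouse. Without mouse 5, Ctsz (1.33) and Ifi30 (1.89) passed.

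Ctsb, Ctsc and Ctsd differed least. Ctsb (chr14:63122462-63145923), whose product is an abundant lysosomal endopeptidase, had 323, 331, 256, 223 and 216 CPM in naïve mice 1 to 5 and 384, 550, 380, 419 and 200 CPM in pre-exposed mice 1 to 5. Its log2 fold change was 0.52 (SE 0.26), with an adjusted p of 0.240 by edgeR, and it was 0.65 and passed without pre-exposed mouse 5. Ctsc (chr7:88278024-88315861), which encodes the activator of granzymes, had 159, 214, 177, 147 and 107 CPM in naïve mice 1 to 5 and 182, 256, 231, 190 and 100 CPM in pre-exposed mice 1 to 5. Its groups overlapped widely, with a log2 fold change of 0.26 (SE 0.27) and an adjusted p of 0.592 by edgeR.

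Ctsd (chr7:142375910-142387827) had 506, 541, 550, 535 and 667 CPM in naïve mice 1 to 5 and 577, 702, 724, 834 and 214 CPM in pre-exposed mice 1 to 5. Pre-exposed mouse 5 was far below all others. The log2 fold change of 0.13 had an SE of 0.30 and an adjusted p of 0.830 by edgeR, which leaves room for a change in either direction, and it was -0.013 without pre-exposed mouse 4. Ctsb overlaps Fdft1 and Ctsz overlaps Nelfcd, and since the strand setting of the counting is not given, reads from these neighbours may be shared.

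**Figure D2:**
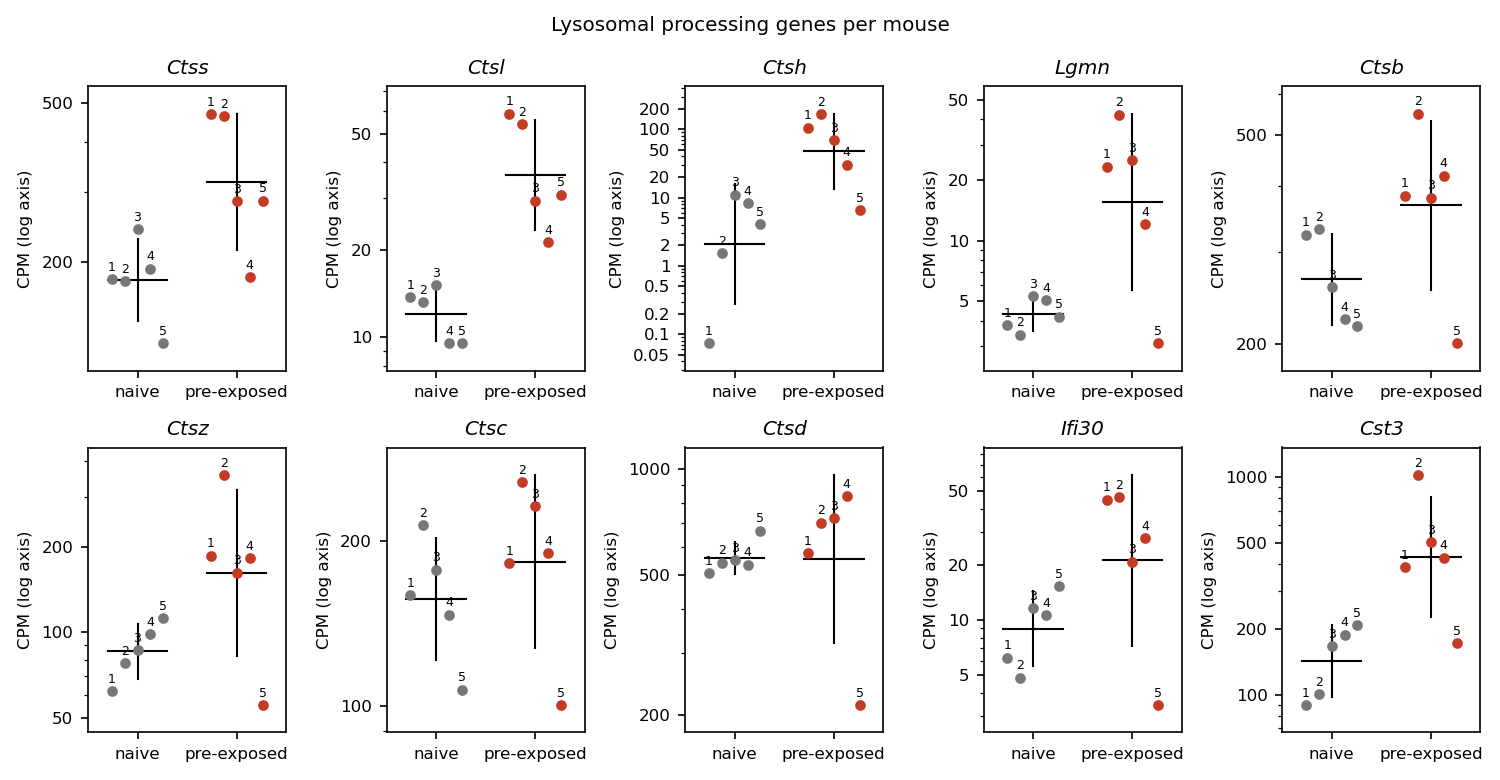
CPM (log axis) of each gene per mouse, with 5 naïve (grey) and 5 pre-exposed (red) mice, each point carrying its mouse number; the numbers do not pair mice across groups. Bars show the mean and SD of log2 CPM; Ctsl is the gene whose groups do not overlap in CPM, and pre-exposed mouse 5 is the lowest of all 10 mice in 6 genes.

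The SD of CPM was larger among pre-exposed than among naïve mice in each of the 10 genes. The mean CPM was also higher in each, and an SD of CPM tends to rise with the mean, so a larger relative spread is not shown. For Ctsh, the log2 differences from the naïve mean ran from -3.57 to 2.02 in naïve and from 1.29 to 5.92 in pre-exposed mice. The share of all genes with a larger SD was not computed. Pre-exposed mice 2 and 3 were above every naïve mouse in all 10 genes, and mice 1 and 4 in 8 genes each. Mouse 5 was above every naïve mouse in 2 genes, Ctss and Ctsl, and below every naïve mouse in 6. In TPM, mouse 5 was above every naïve mouse in 0 genes and below every naïve mouse in 8, Ctss among them, and Ctsl was within the naïve range. For single mice the matching shares over all genes were not computed. These counts thus describe the members without showing anything particular to them. Without mouse 5, 7 of the 10 genes did not overlap between the groups, beside 6.73% of all genes in CPM, and without mouse 4 it was 2 of the 10, beside 3.28%. Summed over the 10 genes, the level was 1345 to 1522 CPM in naïve mice and 2416, 3660, 2427, 2326 and 1071 CPM in pre-exposed mice 1 to 5.

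With pre-exposed mice 2 to 4 alone against the naïve mice, 7 of the 10 were called higher by edgeR, beside 14.9% of all genes. In that comparison 8 of the 10 did not overlap, beside 15.9%. With pre-exposed mice 1 and 5 alone, which carry the index pair in their labels, 0 of the 10 were called, and 23 genes were called in all (0.182%). At an unadjusted p under 0.05, 5 of the 10 passed with these 2 mice, beside 15.9% of all genes, and 2 of the 10 did not overlap, beside 6.27%. With the index pair as a covariate over all 10 mice, 0 of the 10 were called, beside 0.308% of all genes called higher, and 5 passed at an unadjusted p under 0.05, beside 17.4% of all genes. The log2 fold changes with mice 1 and 5 were 1.92 for Ctsl, 3.60 for Ctsh, 1.73 for Lgmn and 0.94 for Cst3, while those of Ctsc (-0.13) and Ctsd (-0.45) were below 0. What the missing index pair in the labels stands for is not stated, and it cannot be told apart from differences between these mice.

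**Figure D3:**
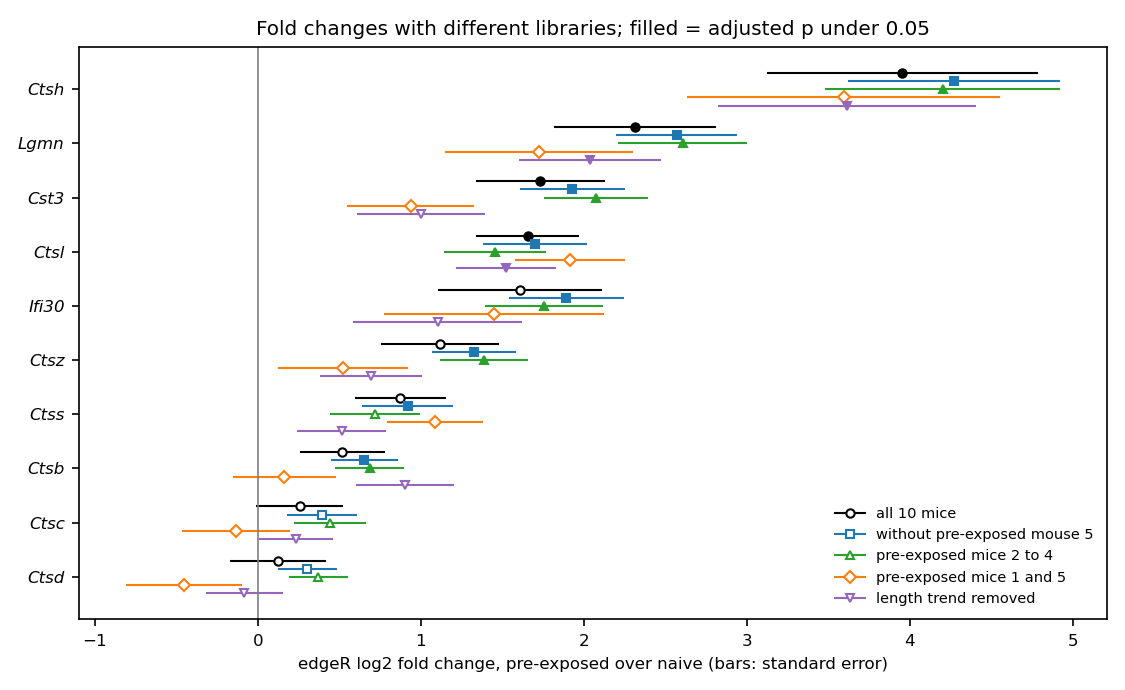
Log2 fold change of pre-exposed over naïve from edgeR (x axis, bars show the SE) for each gene with all 10 mice, without pre-exposed mouse 5, with pre-exposed mice 2 to 4 or mice 1 and 5 alone against the 5 naïve mice, and with the length trend removed. Filled points have an adjusted p under 0.05; Ctsh, Lgmn, Ctsl and Cst3 lie above 0 in all 5 fits, and Ctsc and Ctsd lie on both sides of 0.

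The make-up of the group also differed. Ctsd supplied 36.1% to 45.4% of the counts of the 10 genes in naïve mice, against 23.9%, 19.2%, 29.8%, 35.9% and 20.0% in pre-exposed mice 1 to 5. The share of Cst3 was 6.68% to 14.2% in naïve mice, against 16.0%, 27.9%, 20.6%, 18.3% and 16.1% in pre-exposed mice 1 to 5. The ratio of Cst3 to Ctsd counts, which does not depend on the scaling of libraries, was 0.178 to 0.353 in naïve mice and 0.511 to 1.46 in pre-exposed mice, mouse 5 included. Within a library such a ratio shows unequal change and not which gene changed. In CPM, pre-exposed mouse 5 had Ctsd below every naïve mouse (214) and Cst3 within the naïve range (172). In pre-exposed mice 1 to 4, Cst3 was above every naïve mouse and Ctsd was not below the naïve range. The ratio is not free of the length trend, since Cst3 has 742 bases and Ctsd 1954. With that trend removed, the log2 fold change by edgeR was 1.00 for Cst3 and -0.082 for Ctsd. The other ratios computed overlapped between the groups. That of Ctsb to Ctsd was 0.324 to 0.639 in naïve and 0.502 to 0.937 in pre-exposed mice. For Cst3 to Ctss it was 0.496 to 1.67 in naïve and 0.604 to 2.33 in pre-exposed mice. How often ratios of other gene pairs overlap was not computed.

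Other genes of the lysosome were compared as lists chosen for this system. Among further lysosomal proteases, 1 of 10 tested was called higher and 0 lower by edgeR, with a median log2 fold change of 0.12. The one called was Napsa, an aspartic protease gene, with 14.7 to 28.8 CPM in naïve mice and 127, 203, 96.2, 101 and 19.1 CPM in pre-exposed mice 1 to 5 (log2 fold change 2.33, SE 0.45, adjusted p = 0.0145 by edgeR). Ctsw, a cathepsin gene of cytotoxic lymphocytes, had a log2 fold change of 0.59 (adjusted p = 0.176 by edgeR) and Ctso one of -0.43 (adjusted p = 0.397 by edgeR).

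Of the protease inhibitors besides Cst3, 1 of 5 tested was called higher and 0 lower, with a median log2 fold change of 0.60. Cstb, which encodes the intracellular inhibitor cystatin B, had 39.6 to 54.9 CPM in naïve mice and 45.1, 131, 106, 105 and 184 CPM in pre-exposed mice 1 to 5 (log2 fold change 1.27, SE 0.30, adjusted p = 0.0296 by edgeR). In contrast to Cst3, its highest value was in pre-exposed mouse 5 and its value in mouse 1 was within the naïve range. Cst7, encoding cystatin F of cytotoxic cells, had a log2 fold change of 0.72 (adjusted p = 0.0569 by edgeR), and its pre-exposed values of 98.7 to 178 CPM were all above the naïve ones of 79.1 to 95.5 CPM.

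Of 36 lysosomal hydrolase and membrane protein genes, 0 were called in either direction by edgeR, 4 passed at an unadjusted p under 0.05 and 1 was called by DESeq2, with a median log2 fold change of 0.07. Of 8 tested genes for sorting receptors and lysosomal transcription factors, 0 were called by edgeR, 1 passed at an unadjusted p under 0.05 and 0 were called by DESeq2, with a median of 0.08. The smallest p of the hydrolase and membrane list was that of Cd63 (log2 fold change 1.17, adjusted p = 0.0519 by edgeR). Of 16 subunits of the vacuolar ATPase that acidifies the lysosome, 2 were called higher, Atp6v0e (1.15, adjusted p = 0.0285 by edgeR) and Atp6v1f (0.85, adjusted p = 0.0491 by edgeR), and the median was 0.46. At an unadjusted p under 0.05, 6 of the 16 passed, and DESeq2 called 3. Of the 5 granule proteases, 2 were called higher, Gzmb (1.44) and Gzma (2.04), with a median of 1.85. At an unadjusted p under 0.05, 4 of the 5 passed, and DESeq2 called 3. The unadjusted counts above stand beside 24.3% of all genes, and the medians beside 0.02 over all genes tested and 1.36 over the cathepsin group. In these lists and those below, counts called higher by edgeR stand beside 5.12% of all genes. Those called lower stand beside 1.17%.

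All 10 genes of MHC class II presentation, with which the cathepsins work, were called higher, beside 5.12% of all genes. Their median log2 fold change was 3.67. Cd74, the invariant chain gene, had 42.9 to 253 CPM in naïve mice and 3006, 5138, 1999, 1730 and 111 CPM in pre-exposed mice 1 to 5. The value in pre-exposed mouse 5 was thus within the naïve range, as for Ctsh and Cst3. H2-DMa, which exchanges peptides in the class II groove, had 28.9 to 40.2 CPM in naïve mice and 90.0, 137, 92.7, 85.4 and 22.3 CPM in pre-exposed mice 1 to 5.

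Several markers of other spleen cells, but not all, moved with these genes. The counts called below stand beside 5.12% of all genes called higher. Of the conventional dendritic cell markers, 5 of 9 tested were called higher (median log2 fold change 2.35), and their summed level over all 10 listed was 62.6 to 91.7 CPM in naïve mice and 461, 481, 256, 233 and 77.8 CPM in pre-exposed mice 1 to 5. Of the monocyte and macrophage markers, 4 of 6 tested were called higher (median 3.02), with sums of 36.0 to 168 CPM in naïve mice and 959, 1473, 622, 320 and 48.3 CPM in pre-exposed mice 1 to 5. By these sums, in both lists pre-exposed mice 1 to 4 were above the naïve mice and mouse 5 was within their range, as for Ctsh and Cst3. Single genes weighed heavily in the sums, since in pre-exposed mouse 2 Cd209a had 319 CPM and Lyz2 1250 CPM. Other markers of these lists were not called. For dendritic cells these were Xcr1 (log2 fold change 0.008), Itgax (0.45), Wdfy4 (1.89, adjusted p = 0.101 by edgeR) and Zbtb46 (2.35, adjusted p = 0.0600 by edgeR). Wdfy4 and Zbtb46 were above every naïve mouse in pre-exposed mice 1 to 4. For macrophages they were C1qb (0.59) and C1qc (-0.87).

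Plasmacytoid dendritic cell markers had 1 of 4 called, Siglech (median log2 fold change 0.47), with sums of 67.5 to 133 CPM in naïve and 87.2 to 309 CPM in pre-exposed mice. B cell markers had 2 of 3 tested called, Cd79a and Ms4a1 (median 2.88), and Pax5 was at 0 in all libraries. Their sums over all 7 listed were 42.4 to 98.7 CPM in naïve and 43.2 to 134 CPM in pre-exposed mice. Over the 3 tested, the median log2 difference from the naïve mean was -0.66 to 0.93 in naïve mice. In pre-exposed mice 1 to 5 it was 3.85, 3.10, 1.43, 0.65 and -0.62. Neutrophil markers had 1 of 3 called, Csf3r (median 3.02), with sums of 0.310 to 26.2 CPM in naïve and 1.09 to 342 CPM in pre-exposed mice. Of the αβ T cell, NK cell and γδ T cell markers, 1 of 6, 1 of 5 and 1 of 8 were called higher, with medians of 1.13, 0.10 and 0.01, and 0 in these 3 lists were called lower. In pre-exposed mouse 5 the markers of dendritic cells and macrophages did not move together, since Cd209a was at 0.545, Csf1r at 0.545 and Clec10a at 0 CPM but Flt3 at 6.00 and Adgre1 at 14.4 CPM, the last of these against at most 3.08 CPM in naïve mice. The part of other cell types in the differences of the cathepsin group was not tested.

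**Figure D4:**
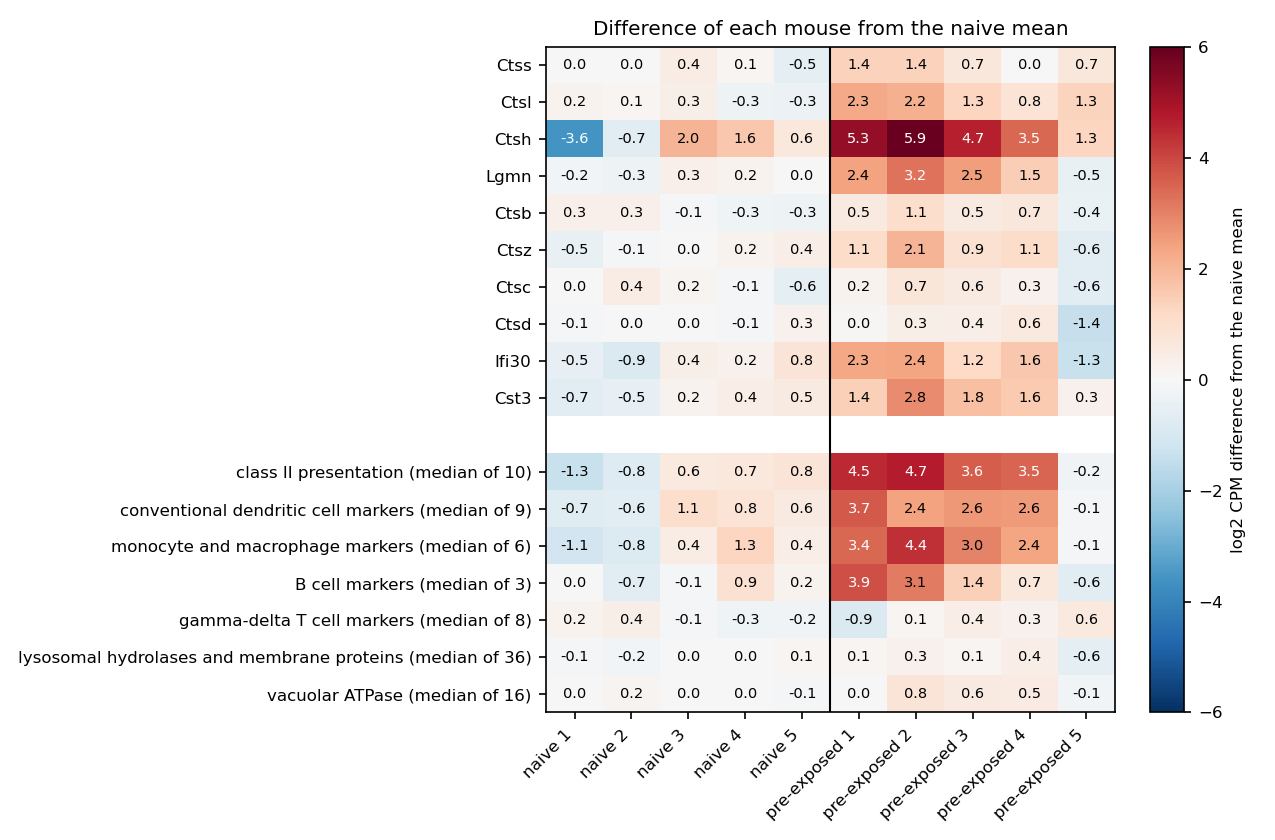
Difference of log2 CPM (prior count 2) from the naïve mean for each mouse (columns) in the 10 genes and, below, the median difference over the tested genes of 7 lists (rows); red is higher and blue lower. Class II, dendritic cell and monocyte medians are above the naïve range in pre-exposed mice 1 to 4 and within it in mouse 5, where Ctsl and Ctss are above it.

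The naïve mice varied in the same genes. Ctsh ran from 0.0734 CPM in naïve mouse 1 and 1.55 CPM in mouse 2 to 11.0 CPM in mouse 3. H2-Aa, a class II chain gene, had 7.56, 14.8, 38.3, 60.1 and 31.8 CPM in naïve mice 1 to 5, and Cd209a, a dendritic cell marker, had 0.0734, 0, 13.6, 6.38 and 2.02 CPM. Naïve mice 1 and 2 were the 2 lowest in all 3 genes and in Cst3. Lgmn varied little, between 3.41 and 5.31 CPM.

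Across the 10 libraries, which share the split between groups and the trends described above, the members fell into patterns. As a description, with Pearson's r of log2 CPM over n = 10, Ctsz was most like Ifi30 (0.941), Cst3 (0.936) and Lgmn (0.930), and Ctss was most like Ctsl (0.928). Ctsd was unlike Ctsl (-0.032) and Ctss (-0.088). Among all other genes tested, Spi1, which encodes PU.1, was nearest to Ctsh (r = 0.977, Spearman's rho 0.976, and r = 0.947 without the 2 libraries farthest from the median of Ctsh), followed by Dnase1l3 (r = 0.972) and Cd300ld (r = 0.966). Spi1 was at 0 to 6.03 CPM in naïve mice and 45.7, 61.2, 33.4, 33.4 and 1.64 CPM in pre-exposed mice 1 to 5.

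Pld4 (r = 0.977), H2-DMa (0.975) and Sh2d1b1 (0.975) were nearest to Lgmn. Foxp3, the regulator of regulatory T cells, was nearest to Ifi30 (r = 0.993, rho 0.988, and 0.993 without the 2 farthest libraries), with 5.07 to 17.2 CPM in naïve mice and 42.5, 42.6, 25.1, 33.4 and 4.18 CPM in pre-exposed mice 1 to 5. Ly6c2 was among the nearest to Ctsl (r = 0.965) and, like Ctsl, was higher in every pre-exposed mouse, at 286 to 653 CPM, than in any naïve mouse, at 150 to 204 CPM. Nearest to Ctss was Il1rl1 (r = 0.935), to Ctsb Slc46a3 (0.980), to Ctsc Vamp3 (0.952), to Ctsd Wdr1 (0.994), to Ctsz Lap3 (0.992) and to Cst3 Msrb1 (0.977). With 10 libraries and 12655 genes, high values of r arise readily among genes that follow the same few libraries.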

How the data were processed

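One RNA-sequencing library was made from the EM γδ T cells of each mouse, 5 naïve and 5 pre-exposed, with groups and replicate numbers taken from the sample labels. The authors aligned read pairs to mm10 with Subread and deposited whole-number counts per Entrez gene made with featureCounts and its built-in NCBI annotation; neither a version nor whether reads were assigned by strand is given in the sources used here. For the library kit, the labels name Illumina TruSeq, where the study's methods name Clontech SMART. The table also holds a gene length for each row. Both the table of the whole series and the 10 library files hold the same counts.

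Genes were filtered with filterByExpr (13534 kept), and 767 without a symbol and 112 immunoglobulin genes were left out, as in the study's methods, so that 12655 were tested. Of the 27179 IDs, 25275 matched a symbol of RefSeq on GRCm38.p6. The main test was edgeR 4.0.16 (quasi-likelihood, robust, legacy set to FALSE) in R 4.3.3 with TMM scaling and no covariates; p-values were adjusted by Benjamini and Hochberg over all genes tested, with a threshold of 0.05. The SE was taken as the absolute log2 fold change over the root of the F statistic. CPM use TMM-scaled library sizes, and TPM were computed from the counts and the deposited lengths. Alternatives used DESeq2 1.42.0, limma 3.58.1 and other scalings, filters and library subsets, and each kind of fit was tested on simulated data. For the length trend, a loess fit (span 0.3) of each library's deviations on log2 length was used as an offset.

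All 10 members are named, with up to 4 genes of smallest p from each list and up to 3 genes nearest to each member by r on the log2 CPM scale (prior count 2); other genes, such as H2-DMa in the class II list, Cd209a, Clec10a and Flt3, were chosen after their values were seen. The members and lists were chosen with earlier results of these data known. The same replicate numbers in the 2 groups do not pair the mice. Intervals cover counting error only, and p-values set the difference between the groups against the spread between these samples.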

Additional observations from a re-analysis of the deposited data

Results flagged for a closer look

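Ctsd in naïve mouse 5 stood apart from the other naïve mice, at 667.1 CPM against 506 to 550 CPM, with a gap of 0.728 of the group's range, above Dixon's critical value of 0.71 for 5 samples. It was the only one of the 20 groups of member values tested that did so, and chance alone gives about 1 in 20.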

How the results depend on the processing

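Ctsh, Ctsl, Lgmn and Cst3 kept a log2 fold change above 0 under all 24 alternatives to the main fit, between 3.44 and 4.71, 1.41 and 1.92, 1.69 and 2.61, and 0.89 and 2.07 in turn, but missed the threshold under 9, 7, 9 and 11 of them. With DESeq2, 7 members and 1350 genes were called, with voom and TREAT 0 and 2, and with sample quality weights 2 and 287. The older edgeR dispersions gave 358 genes and the removed length trend 214, with 4 and 3 members. With the index pair as a covariate, 0 members and 40 genes were called, and Ctsc (-0.18) and Ctsd (-0.50) turned below 0. With pre-exposed mice 1 and 5 alone, 0 members and 23 genes were called, and Ctsc (-0.13) and Ctsd (-0.45) were below 0. In that comparison 2 members did not overlap, beside 6.27% of all genes. With mice 2 to 4 alone, 7 members and 3776 genes were called, and 8 members did not overlap, beside 15.9% of all genes. Ctsd was also below 0 with the length trend removed (-0.082) and without pre-exposed mouse 4 (-0.013, with 0.30 without mouse 5 as the highest value when leaving out 1 mouse). The causes were not tested. Leaving out 1 mouse at a time gave 0 to 8 members and 53 to 1870 genes called, and 1 to 7 members without overlap in CPM. The latter were 2 without pre-exposed mouse 4 (3.28% of all genes), 7 without mouse 5 (6.73%) and otherwise 1. In TPM, an alternative chosen after the data were seen, 0 members were without overlap, beside 0.553% of all genes higher without overlap. Of the ranks by level, 5 of 10 were the same in CPM as in TPM. With the replicate number as a block, 0 members and 54 genes were called, with 6 members and 2381 of 12655 genes at an unadjusted p under 0.05; same-numbered mice did not deviate together (correlations of -0.261 to 0.053), so they share only a number, and no mouse number's best match was its own. Other scalings and filters called 4 members each. Depth limits Ctsh in naïve mouse 1 most, where 3 counts correspond to 0.210 CPM.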
